A study of Mus musculus with 12 samples.

Results

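The difference between 2 organs in their response to the same operation was measured: the change in lung after CLP minus the change in liver after CLP, gene by gene. CLP stands in this field for cecal ligation and puncture, in which gut contents leak into the abdomen, and it is used as a mouse model of sepsis. All 12 libraries of the series entered 1 model of 4 groups, and the members are all genes that passed a filter on low counts, 16111 of the 55414 gene identifiers in the table. No measured response was used to choose them. The 4 groups were liver after sham surgery, liver after CLP, lung after sham surgery and lung after CLP, with 3 libraries each. All mice were wild type (WT) of strain C57BL/6J, and both organs were taken 6 h after surgery. The sources used here do not give age, sex, whether each library came from a separate mouse, or which liver and lung shared one. The p-values therefore measure the spread among these libraries, which may be technical.

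When microbes reach the blood, their products bind Toll-like receptors on macrophages, endothelium and parenchymal cells and switch on NF-kB, which drives chemokines and cytokines. Interleukin-6 then acts through STAT3 on hepatocytes, which make acute phase proteins, while interferon-gamma acts through its own receptor on many cell types. The liver filters gut blood through a fenestrated endothelium lined by Kupffer cells, and the lung carries the whole cardiac output through a dense capillary bed in which neutrophils lodge. A response that differs between the organs can therefore involve different cells as well as different levels in the same cell type, and in whole tissue fewer cells of a type and less RNA per cell cannot be told apart.

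Total counts per library ran from 10559895 to 15854117, and on the scale of counts per 1000000 counts of a library (CPM) 3 counts came to 0.189 to 0.284. The 10 most abundant genes took 18.9 to 24.3% of the counts in liver and 5.81 to 7.39% in lung, and the scaling factors were 0.576 to 0.713 in liver and 1.53 to 1.66 in lung. Levels below are CPM on the scaled library sizes. The tissue labels matched: the summed level of 16 hepatocyte markers was 138554 to 204642 CPM in liver and 281 to 373 CPM in lung. Low levels of the defining markers of the other organ were also measured, and where these transcripts came from was not tested. Over 8 markers of lung epithelium, sham liver libraries held a median of 0.0662 to 0.1% of the level in lung, and CLP liver libraries held 0.24 to 0.352%. Over 9 liver markers, the median level in lung was 0.00736 to 0.0469% of the liver level in sham and 0.0188 to 0.0254% in CLP.

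Differences below are log2 values, lung minus liver, so a value above 0 means that the gene rose more or fell less in lung, and a value below 0 that it rose more or fell less in liver. A gene is called where the Benjamini-Hochberg adjusted p of edgeR's quasi-likelihood test is below 0.05, and all adjusted p-values here come from that test. Of the 16111 genes, 2856 (17.7%) were called, 1432 (8.89%) above 0 and 1424 (8.84%) below 0. The difference was at least 2-fold in 863 genes (5.36%) above 0 and in 713 (4.43%) below 0. For comparison, 3236 genes (20.1%) rose and 3212 (19.9%) fell in liver, and 3221 (20%) rose and 3491 (21.7%) fell in lung, in the same model. The median standard error of the difference was 0.28. Across genes the changes in the 2 organs went together with Pearson's r of 0.487 and a Spearman rank correlation of 0.479 (n = 16111). Among the 11643 genes with a mean of at least 1 CPM in each organ r was 0.63. These are descriptions across genes, which share libraries and are not independent replicates.

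**Figure D1:**
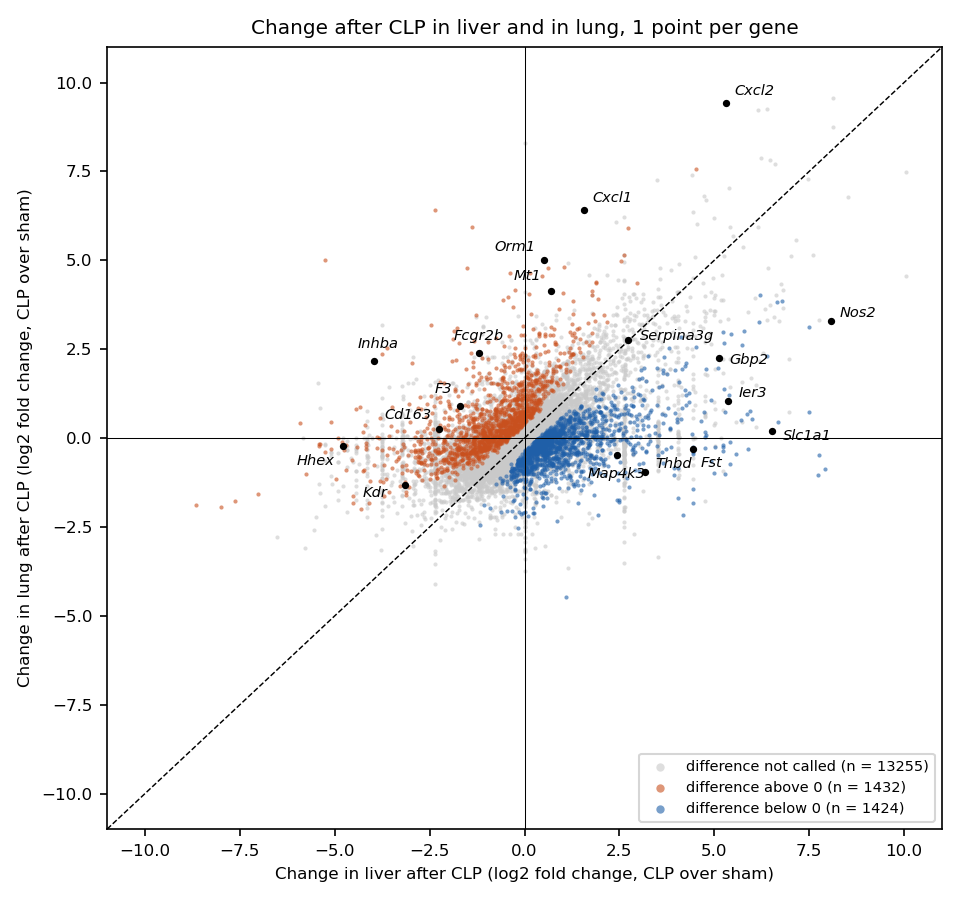
Change after CLP in liver (horizontal, log2) and in lung (vertical, log2) for each of the 16111 genes tested. Genes above the dashed line of equal change and called (1432, orange) rose more or fell less in lung, and those below it and called (1424, blue) rose more or fell less in liver. Grey genes were not called.

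Genes with changes in the same direction in both organs are to be read against the 17.7% of all genes with a called difference. Of 1669 genes that rose in both, 1353 (81.1%) had no called difference, 115 rose further in lung and 201 rose further in liver. The median rise of these 1669 was 1.03 in liver and 0.90 in lung on the log2 scale. Of 1494 genes that fell in both, 1298 (86.9%) had no called difference, 176 fell further in liver and 20 fell further in lung. A further 1572 genes fell in liver and were not called in lung, and the difference was called in 579 of them (36.8%), the others being genes whose organs were not shown to differ. Likewise the difference was called in 623 of 1363 genes (45.7%) that rose in liver and were not called in lung, in 396 of 1406 (28.2%) that rose in lung alone and in 355 of 1793 (19.8%) that fell in lung alone. Among genes called above 0, 31.5% were higher in lung than in liver after sham surgery and 58.2% after CLP. Among those called below 0 the share went from 71% to 46%, and over all genes it was 54.4% and 54.8%. The direction of both shifts is set by how the called genes were chosen, so the shares describe the calls and do not test them.

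**Figure D2:**
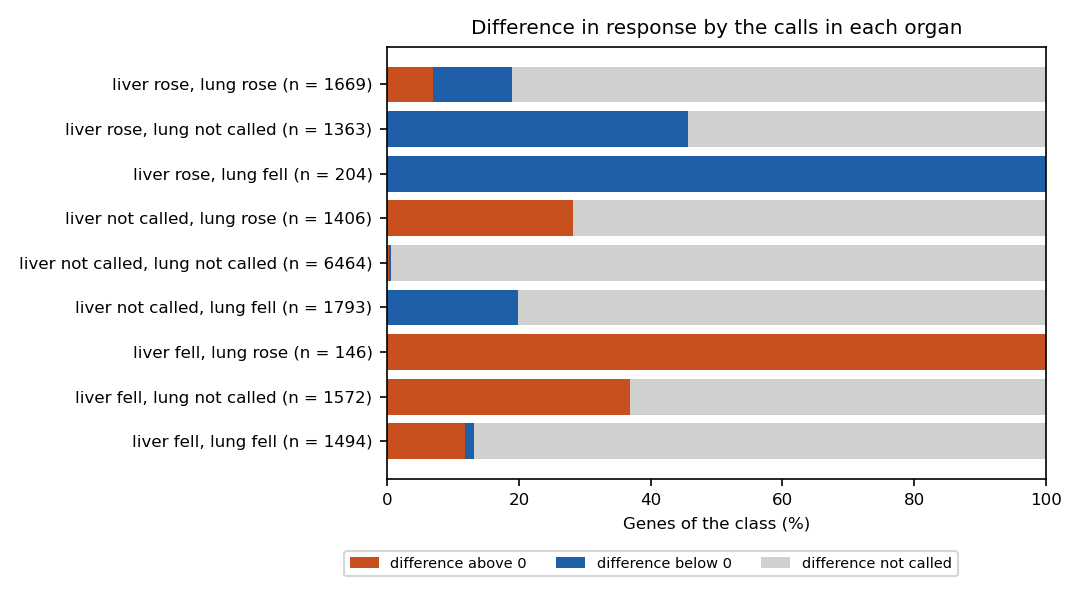
Share of genes (%) whose difference in response was called above 0 (orange), below 0 (blue) or not called (grey), for each combination of calls in liver and lung. The difference was called in all genes with opposite calls in the 2 organs. Opposite changes add up in the difference, so that share is nearly set by how these genes were chosen. Among genes called in 1 organ alone the difference was called in 19.8 to 45.7%.

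Named first are the genes with the most alike responses, since they show what a shared response looks like in these libraries. They were taken by how close the whole 95% interval of the difference lay to 0, among genes past the threshold in both organs. Serpina3g, an intracellular serine protease inhibitor, rose from 6.64, 4.65 and 5.2 CPM to 30.8, 36.7 and 41.1 CPM in liver and from 4.93, 4.03 and 4.87 to 35.5, 30.4 and 28.6 CPM in lung. Sham and CLP libraries did not overlap in either organ, and the difference was 0.05 with an interval of -0.43 to 0.54. Casp4, the cytosolic lipopolysaccharide sensor caspase-11, rose by 3.06 in liver and 3.17 in lung (difference 0.11, interval -0.51 to 0.72). Fpr2, a formyl peptide receptor of phagocytes, rose by 3.23 and 3.26 (interval -0.59 to 0.65). Oas1a, Slc15a3 and Map3k8, an interferon-induced antiviral enzyme, an endolysosomal peptide transporter and the kinase TPL2, rose by 2.23, 2.49 and 2.12 in liver and by 2.19, 2.41 and 2.23 in lung. Among falling genes, Dock6, a guanine nucleotide exchange factor, changed by -1.23 in liver and -1.20 in lung (interval of the difference -0.31 to 0.39). Slc9a3r2, a scaffold protein, changed by -1.32 and -1.29, Abcd4 by -1.05 and -1.02, and Naa80, whose exons overlap Hyal1 and Hyal3 on its strand, by -1.13 and -1.18. A gene without a called difference is not thereby shown to respond equally: the interval gives the range that these libraries allow.

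The genes named next had the largest differences among called genes with a mean of at least 10 CPM in some group and at least 1 CPM in a group of each organ, and a call in all 12 fits that left out 1 library. Above 0 they were genes that fell in liver and rose in lung, genes that fell in liver alone and genes that rose in lung alone, and Cxcl1, described among the chemokines, rose in both organs. Inhba, which encodes the activin A subunit, was at 13, 19.3 and 46.7 CPM in sham liver and at 2.47, 1.04 and 1.48 CPM in CLP liver, against 0.763, 0.844 and 0.889 CPM in sham lung and 3.8, 5.44 and 2.06 CPM in CLP lung. Every CLP library lay below every sham library in liver and above every sham library in lung, and the difference was 6.14 (interval 4.30 to 8.02, adjusted p 0.000368). Without sham liver replicate 3, the highest library, it was 5.48. Hhex, a homeobox factor of hepatocytes and endothelium, went from 102, 112 and 80.8 to 3.96, 4.03 and 2.47 CPM in liver while the lung groups overlapped, at 13.4, 14.5 and 14 CPM in sham and 13.7, 11.9 and 10.1 CPM in CLP (difference 4.56, interval 4.02 to 5.11, adjusted p 6.76e-07). G0s2, an inhibitor of the lipase ATGL, showed the same form, with a change of -4.71 in liver and -0.20 in lung (adjusted p of the difference 0.00247).

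Other large differences above 0 came from lung. Msr1, a scavenger receptor of macrophages, was at 2.19, 2.3 and 2.11 CPM in sham lung and 58.2, 63.7 and 34.3 CPM in CLP lung, against 28.6, 29.8 and 27.1 CPM and 33.4, 40.9 and 44.4 CPM in liver, where the change was not called (difference 4.09, interval 3.46 to 4.74). F10, clotting factor X, went from 3.61, 4.17 and 4.59 to 145, 115 and 47.6 CPM in lung, and its liver libraries, at 463, 503 and 574 CPM and 527, 578 and 589.9 CPM, overlapped (difference 4.50, interval 3.56 to 5.44). After CLP the lung libraries reached 25.7, 20.4 and 8.42% of the mean liver level of F10, against 0.704 to 0.895% after sham surgery. Of the 9 liver markers Trf, transferrin, had the highest shares in lung, 1.04 to 1.13% after sham surgery and 0.915 to 1.01% after CLP. The part of carried-over liver transcripts in the level of F10 was not tested. Hal, histidine ammonia-lyase, changed by -1.32 in liver and 2.74 in lung, and reached 1.01 to 2.3% of its liver level in CLP lung. Disp2, a membrane protein of the Dispatched family, changed by -1.81 and 2.20 (interval of the difference 2.67 to 5.38).

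The largest differences below 0 under the same conditions were led by genes nearly absent from sham liver. Car4, a carbonic anhydrase of lung capillaries, had 0 counts in the 3 sham liver libraries and 47 counts in the 3 CLP liver libraries, at least 19.6-fold higher against a floor of 3 counts over the group. In lung it fell from 149.9, 125 and 129 to 64.3, 74.1 and 84.1 CPM, and the difference was called (adjusted p 2.37e-05). Its mean after CLP was 2.11 CPM in liver beside 74.2 CPM in lung, and the source of its counts in liver was not tested. Slc1a1, a glutamate transporter, had 1 count in sham liver and 91 in CLP liver, a ratio of 114 with an exact 95% counting interval of 19.9 to 4550, and its lung libraries overlapped at 12.4, 12.3 and 15.9 CPM in sham and 14.8, 13.7 and 17.8 CPM in CLP. Olr1, the oxidised LDL receptor LOX-1, had 1 and 103 counts in liver (ratio 129, interval 22.6 to 5140), and Spef2, known from sperm flagella, had 2 and 49 (ratio 30.7, interval 8.05 to 260). The lung groups of both overlapped. These fitted differences of -6.34, -6.22 and -4.70 rest on 1 or 2 sham liver counts and depend on the prior count of the fit, with values of -4.41, -4.30 and -3.40 at a prior count of 2 in place of the smaller default. Without sham liver replicate 3 that of Slc1a1 was -8.72 and that of Spef2 -7.93, and for Olr1 it was -8.62 without replicate 1 and -5.60 without replicate 3. Exons of Slc1a1 share bases with a coding gene of the opposite strand.

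Other genes of this set had more counts in sham liver or a rise in both organs. Ier3, an immediate early stress gene, went from 2.79, 3.58 and 1.25 to 126, 71.6 and 108 CPM in liver and from 81.1, 81.8 and 57.8 to 188, 144 and 117 CPM in lung. Sham and CLP libraries were separate in each organ, and the gap between the organs narrowed from sham to CLP (difference -4.33, interval -5.32 to -3.34, adjusted p 7.86e-05). Slc10a6, a carrier of sulphated steroids, rose by 5.28 in liver and 0.73 in lung, a difference of -4.55 (without sham liver replicate 2, the highest of its group, -5.16). Crybb3, a beta crystallin, went from 4.89, 12.8 and 7.8 to 106, 136 and 77.3 CPM in liver, and its change of -0.71 in lung was not called. Nos2, the inducible nitric oxide synthase, had 3 and 709 counts in liver, a ratio of 296 (interval 101 to 1440), and rose in lung from 1.98, 2.72 and 2.06 to 28.4, 23.2 and 15.3 CPM. Its difference was -4.79 (adjusted p 0.0058), -3.78 at a prior count of 2, -4.20 without sham liver replicate 1 and -5.68 without replicate 2. Ch25h, cholesterol 25-hydroxylase, was at 24.5, 41.3 and 17.3 CPM in CLP liver and 31.2, 30.8 and 14.8 CPM in CLP lung after 0.116, 0 and 0.289 and 2.59, 2.16 and 4.07 CPM in the sham groups (difference -4.37, -5.52 without sham liver replicate 3). Without the low-count filter its adjusted p was 0.0584.

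**Figure D3:**
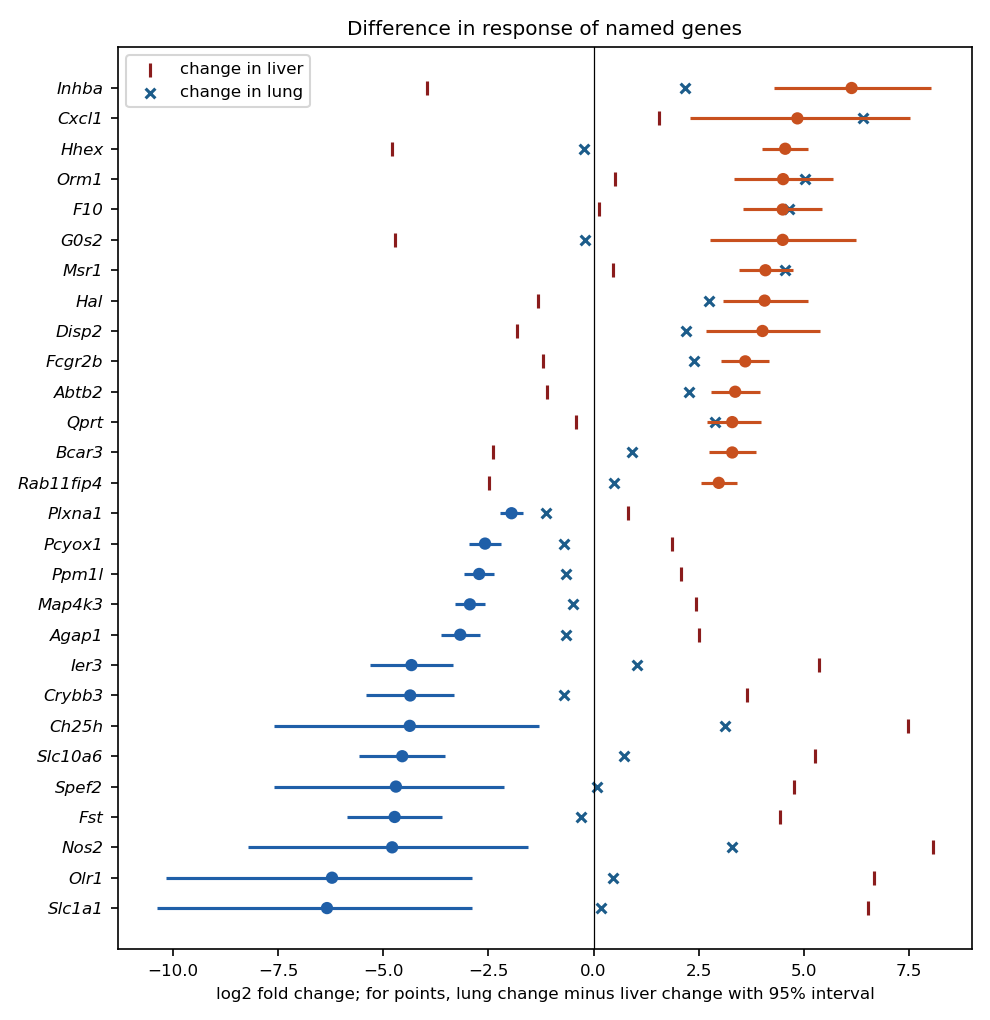
Difference in response (points, lung change minus liver change in log2 units, with 95% intervals) of the genes with the largest differences and of the opposite changes with the lowest p, beside the change in liver (vertical ticks) and in lung (crosses). Inhba has the highest difference at 6.14. Car4 is left out because it had 0 counts in sham liver and no interval.

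Changes in opposite directions, called in each organ and in the difference, were found in 204 genes (1.27%) that rose in liver and fell in lung and in 146 (0.906%) that fell in liver and rose in lung. Map4k3, a kinase upstream of JNK, went from 35.5, 35 and 40.3 to 246, 184 and 172 CPM in liver and from 98.6, 91.5 and 96.6 to 65.6, 68.7 and 69.4 CPM in lung. Every sham lung library lay above every sham liver library, and every CLP lung library lay below every CLP liver library (difference -2.94, interval -3.30 to -2.57, adjusted p 1.48e-06). Ppm1l, a protein phosphatase, differed by -2.72, Agap1, an ARF GTPase-activating protein, by -3.17, Pcyox1, prenylcysteine oxidase, by -2.58, and Plxna1, a semaphorin receptor, by -1.95.

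Among genes of the second kind Fcgr2b, the inhibitory Fc gamma receptor found on liver sinusoidal endothelium and on myeloid cells, went from 62.1, 82.2 and 95.2 to 27.6, 35.1 and 41.5 CPM in liver and from 19.7, 22.8 and 22.1 to 130.5, 123 and 87.8 CPM in lung. Every sham liver library lay above every sham lung library, and every CLP lung library above every CLP liver library (difference 3.61, interval 3.04 to 4.18). Rab11fip4, an effector of the recycling GTPase Rab11, changed by -2.49 in liver and 0.49 in lung, Bcar3, an adaptor of p130Cas, by -2.39 and 0.91, Abtb2 by -1.11 and 2.26, and Qprt, an enzyme of NAD synthesis, by -0.42 and 2.88. Lung held 1.29 to 1.6% of the liver level of Qprt after CLP. Exons of Fcgr2b, Bcar3, Plxna1 and Map4k3 overlap a non-coding gene or pseudogene on the other strand, and reads of such pairs cannot be told apart unless strand was used in counting.

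**Figure D4:**
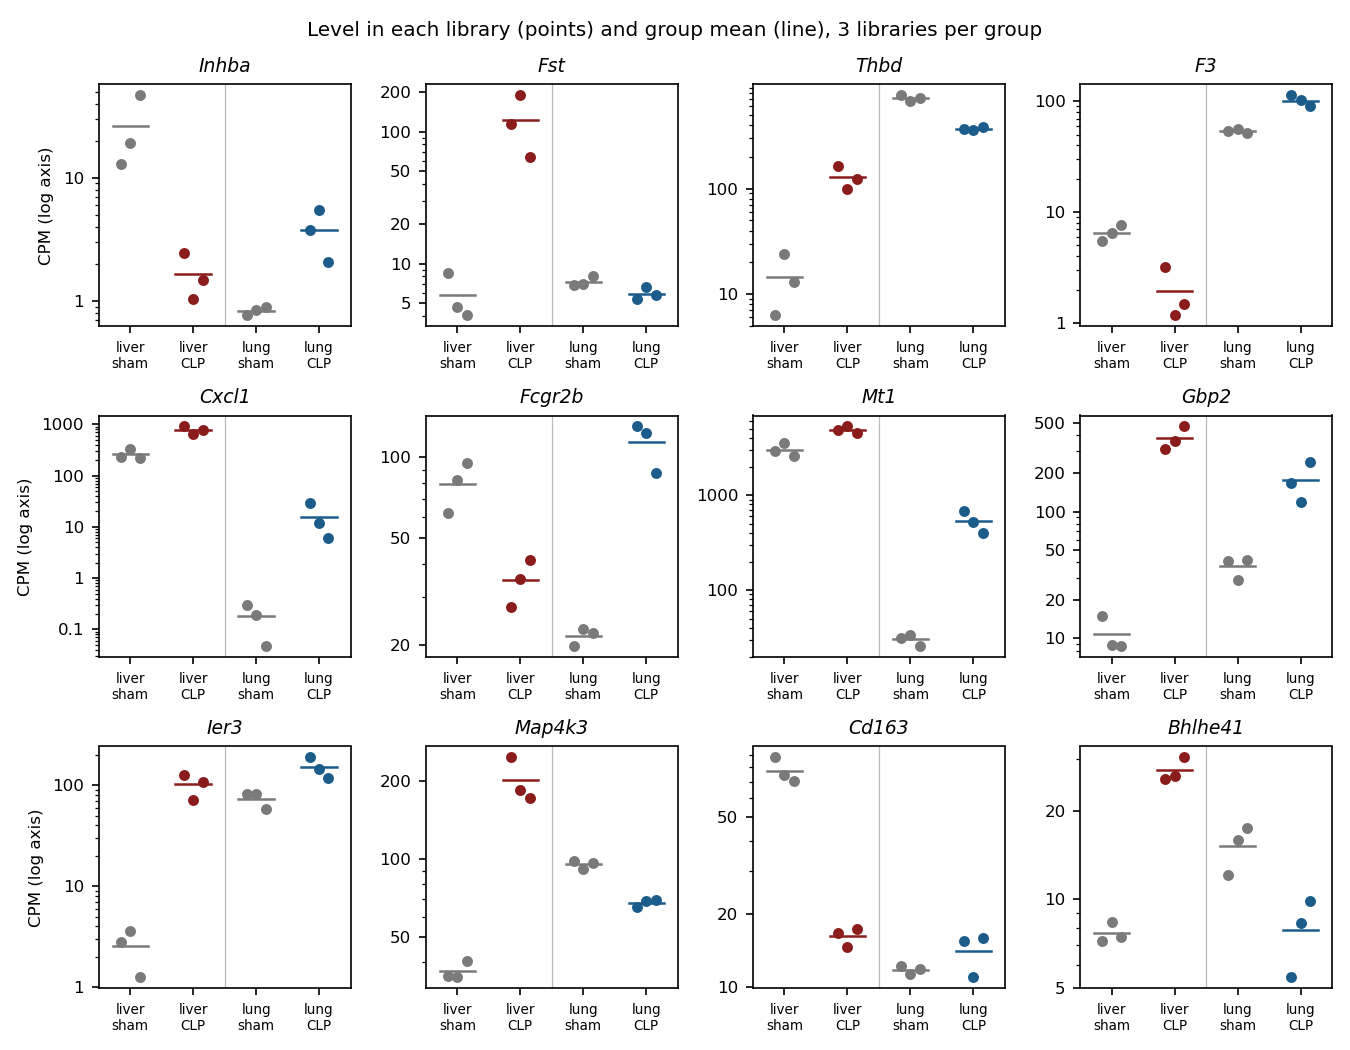
CPM (log axis) of 12 genes in each of the 12 libraries, with the group mean as a line. Inhba, F3, Fcgr2b and Cd163 fell in liver, Fst, Thbd, Map4k3 and Bhlhe41 rose in liver and fell or were not called in lung, and Cxcl1, Mt1, Gbp2 and Ier3 rose in both organs by different amounts.

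Gene lists, here and below, were chosen with earlier results of these data known. Their shares beside those of all genes therefore describe the lists and are no test. Chemokines that attract neutrophils rose in both organs with different reach. Of 7 tested, 6 rose in liver and 6 in lung. The difference was called above 0 in 2 (28.6%, against 8.89% of all genes) and below 0 in 1 (14.3%, against 8.84%). The median of the differences was -0.87, against 0 over all genes, although the median change was higher in lung (4.79) than in liver (3.43). Cxcl1, a ligand of CXCR2, was already at 234, 337 and 218 CPM in sham liver and rose to 907, 654 and 767 CPM. In lung it went from 0.305, 0.188 and 0.0468 to 29.1, 11.9 and 6.02 CPM, a far steeper rise to a far lower level, with no overlap in either organ. The difference was 4.85 (interval 2.30 to 7.53, adjusted p 0.00421) and 4.04 without CLP lung replicate 1, the highest. Cxcl2, the other main CXCR2 ligand, rose from 1.51, 0.716 and 1.06 to 67.1, 28.6 and 34.1 CPM in liver and from 0.356, 0.234 and 0.187 to 265, 181 and 101 CPM in lung, so here lung reached the higher level (difference 4.13, adjusted p 0.0229). That call was lost without sham liver replicate 1 (0.084), sham liver replicate 3 (0.0677), CLP lung replicate 2 (0.0519) or sham lung replicate 3 (0.0512), as adjusted p, without the low-count filter (0.0922) and by limma-voom (0.0841). Cxcl15, a chemokine of lung epithelium, was called below 0 at -3.09, -1.91 at a prior count of 2, from 2 counts in sham liver and 19 in CLP liver. It is itself a lung epithelial transcript of the kind whose low levels rose in CLP liver.

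The promoters of Cxcl1 and Cxcl2 are shown because the genes neighbour each other and rose together in lung. They are the 250 bases before the start, from RefSeq on GRCm38.p6, on the plus strand of chromosome 5, at chr5:90890995-90891244 and chr5:90903649-90903898. Capitals mark the matches to an NF-kB motif of GGGA, any base and TTTCC, searched on both strands.
Cxcl1: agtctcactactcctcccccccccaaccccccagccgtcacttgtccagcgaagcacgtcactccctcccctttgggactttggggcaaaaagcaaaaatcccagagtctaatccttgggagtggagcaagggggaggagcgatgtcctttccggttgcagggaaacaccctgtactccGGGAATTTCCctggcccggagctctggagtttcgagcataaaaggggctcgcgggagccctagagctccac
Cxcl2: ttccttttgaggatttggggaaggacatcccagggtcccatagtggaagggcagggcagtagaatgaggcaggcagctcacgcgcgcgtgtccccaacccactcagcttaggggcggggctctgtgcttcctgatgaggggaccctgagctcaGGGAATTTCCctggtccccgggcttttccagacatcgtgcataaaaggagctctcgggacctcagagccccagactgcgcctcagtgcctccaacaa
Each holds 1 match, with the same 10 letters. Such a match stood in 0.333% of 12002 promoters of tested genes, in 4 of 645 (0.62%) of those called above 0 by at least 2-fold and in 0 of 530 of those called below 0 by at least 2-fold. A match describes the letters only.

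Among 20 chemokines that attract monocytes and lymphocytes, 3 differences (15%, against 8.89% of all genes) were called above 0 and 3 (15%, against 8.84%) below 0. Those above 0 were 1 without CLP lung replicate 1 or without sham lung replicate 2 or 3. Cxcl9, an interferon-gamma induced ligand of CXCR3, went from 13.6, 18.3 and 8.57 to 539, 765 and 826 CPM in liver and from 0.712, 0.281 and 0.374 to 2.55, 3.49 and 2.4 CPM in lung. The groups were separate in both organs, and liver rose further from a higher start (difference -3.10, interval -4.22 to -1.94). Ccl5, a chemokine for T cells and monocytes, likewise rose by 5.09 in liver and 1.96 in lung (difference -3.13, adjusted p 0.00182). Cx3cl1, the membrane-bound chemokine of endothelium, rose by 1.36 in liver and fell by 0.43 in lung. Ccl9 and Ccl6, myeloid chemokines, had differences of 1.16 and 0.77, and that of Ccl6 was not called without CLP lung replicate 1 (adjusted p 0.0525) or sham lung replicate 2 (0.0629) or 3 (0.0627). Cxcl10, another CXCR3 ligand, rose by 5.25 in liver and 5.13 in lung, and its interval of -2.17 to 1.96 allows a difference of either sign.

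Of 14 pro-inflammatory cytokines 9 rose in liver and 10 in lung, and 0 differences were called by edgeR, against 17.7% of all genes. At an unadjusted p below 0.05 there was 1 in each direction, as there was by DESeq2, and limma-voom called 0. Tnf, an early cytokine of the response, was at 0.466, 0.119 and 0.578 CPM in sham liver, 15.2, 5.34 and 5.27 in CLP liver, 0.407, 0.0938 and 0.374 in sham lung and 88.6, 48.6 and 13.3 in CLP lung, and its difference of 2.98 had an interval of -1.33 to 7.32 (adjusted p 0.391). Il6 was at 2 counts in the sham group of each organ and at 47 counts in CLP liver and 270 in CLP lung. Il1b rose by 1.95 in liver and 3.14 in lung (difference 1.19, adjusted p 0.0602). It was called without CLP liver replicate 1 (adjusted p 0.0248) and without sham liver replicate 1 (0.00284).

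Over 26 pattern recognition receptors and adaptors 4 differences (15.4%, against 8.89% of all genes) were called above 0 and 3 (11.5%, against 8.84%) below 0, and those above 0 were 2 without sham liver replicate 2, CLP lung replicate 2 or any sham lung library. Cd14, which hands lipopolysaccharide to TLR4, went from 16.8, 12.5 and 8.19 to 1268, 778 and 708 CPM in liver and from 16.8, 16.9 and 15.7 to 405, 247 and 147 CPM in lung. The sham libraries of the organs overlapped, and after CLP every liver library lay above every lung library (difference -2.19, interval -3.29 to -1.09, adjusted p 0.0112). Tlr2, the receptor for bacterial lipoproteins, rose by 4.52 in liver and 2.57 in lung (difference -1.95). Without the low-count filter the adjusted p was 0.0626 for Cd14 and 0.0567 for Tlr2. Tlr5, the flagellin receptor, fell in both organs and further in liver, with changes of -2.36 and -0.55 (difference 1.81). Tlr13, a sensor of bacterial ribosomal RNA, rose in both organs and further in lung (difference 1.64), and Nod1, a cytosolic sensor of bacterial cell wall, rose in liver alone (difference -0.98). Tlr4 changed by 0.46 and 0.46, neither called.

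Feedback inhibitors were called more often below 0, in 6 of 16 SOCS and dual-specificity phosphatase genes (37.5%, against 8.84% of all genes), with 2 above 0 (12.5%, against 8.89%). The 6 became 3 without CLP liver replicate 3. Socs1, the inhibitor of interferon signalling, went from 1.4, 1.43 and 1.25 to 69.2, 54.5 and 53.3 CPM in liver and from 0.356, 0.657 and 0.889 to 5.38, 4.09 and 5.24 CPM in lung. Liver rose further and reached a level over all lung libraries (difference -2.52, interval -3.31 to -1.71, adjusted p 0.000645). Socs3, the inhibitor of interleukin-6 signalling, had the opposite difference of 1.10 (interval 0.62 to 1.59), with rises of 2.16 in liver and 3.26 in lung. Dusp16 was also above 0 at 1.08. Socs2 and Dusp8 were below 0 at -1.87 and -1.76, and without the low-count filter the adjusted p of Socs2 was 0.0702. Socs6, Socs7 and Dusp4, at -0.66, -0.56 and -1.05, lost their calls without any of 7, 4 and 8 single libraries respectively (highest adjusted p 0.0912, 0.0856 and 0.11).

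Genes induced by interferon-gamma rose in both organs, and liver rose further in most of those that differed. Of 28 GTPases and antigen presentation genes, 25 rose in liver and 22 in lung. The difference was called below 0 in 11 (39.3%, against 8.84% of all genes) and above 0 in 2 (7.14%, against 8.89%), with a median of -0.62. The 11 became 5 to 7 without CLP liver replicate 1 or 3, any sham liver library or sham lung replicate 1 or 3. Gbp2, a guanylate-binding protein, went from 14.9, 8.95 and 8.67 to 312, 359.5 and 468 CPM in liver and from 40.7, 28.9 and 41.3 to 169, 118 and 246 CPM in lung. Sham liver was below sham lung and CLP liver above CLP lung (difference -2.87, interval -3.74 to -2.0, adjusted p 0.000587). Ifi47, a GTPase whose exons are shared with Olfr56, rose by 4.22 and 2.04 (difference -2.18), and Gbp9, whose exons overlap Gbp4 and Gbp8, by 3.65 and 1.90. Psmb10, an immunoproteasome subunit, and Tapbp, tapasin, were below 0 at -0.85 and -0.60. The calls of Gbp3, Gbp4, Gbp6, Gbp7, Tap2 and Cd74 were each lost when some single libraries were left out, with adjusted p of up to 0.108, 0.0824, 0.0718, 0.114, 0.133 and 0.112. Members called above 0 were Nlrc5, the transactivator of MHC class I genes, which rose in lung by 2.41 with no called change in liver (0.54), and Irf1, at 0.86, whose call was lost without CLP lung replicate 1 (adjusted p 0.0554) or sham lung replicate 2 (0.0607).

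The promoter of Gbp2 is shown as the member with the lowest p on this list. It covers the 250 bases before the start on the plus strand, at chr3:142620413-142620662 of GRCm38.p6, from RefSeq, with the match to an interferon-stimulated response element of TTTC, any 2 bases and TTTC (both strands searched) in capitals.
Gbp2: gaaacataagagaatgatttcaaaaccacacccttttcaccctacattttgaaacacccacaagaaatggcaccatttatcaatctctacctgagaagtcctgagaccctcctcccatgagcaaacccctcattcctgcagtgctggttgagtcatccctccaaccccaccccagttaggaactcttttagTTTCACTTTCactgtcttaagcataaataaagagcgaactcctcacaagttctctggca
Of 12002 promoters 2.81% held such a match, as did 3.77% of the 530 promoters of genes called below 0 by at least 2-fold and 3.26% of the 645 called above 0 by at least 2-fold. The gamma-activated site, TTC, any 3 bases and GAA on either strand, had 0 matches in this window of Gbp2 and in those of Cxcl9, Socs1 and Inhba, and stood in 6.11% of the 12002 promoters. The NF-kB motif had 0 matches in that of Ier3. An empty search says only that these letters are not in the window.

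Antiviral genes driven by type I interferon rose in 24 of 25 cases in each organ. Differences were called below 0 in 4 (16%, against 8.84% of all genes) and above 0 in 3 (12%, against 8.89%), and the median was -0.53. The 4 became 0 to 2 in the 10 fits that left out a library other than CLP liver replicate 2 or CLP lung replicate 3, 0 by limma-voom and without the low-count filter, 2 with library totals and 11 or 12 with a replicate block. Oas3, Oas2 and Stat2 were above 0, at differences of 1.43, 1.06 and 0.92. Ifit2, an interferon-induced RNA-binding protein, went from 6.4, 4.41 and 10.2 to 82.6, 37.9 and 161 CPM in liver and from 27.1, 22.7 and 29.1 to 31.8, 24.4 and 67.4 CPM in lung (difference -3.07, adjusted p 0.021). Its adjusted p passed 0.05 without sham liver replicate 1 (0.0551), sham liver replicate 2 (0.0602) or CLP lung replicate 1 (0.0535), and it was 0.0686 without the low-count filter. Usp18, Xaf1 and Isg15 lost their calls without any of 9 or more single libraries each.

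Acute phase genes rose further in lung in most of the cases that differed. Of 30 tested, 9 (30%, against 8.89% of all genes) were called above 0 and 2 (6.67%, against 8.84%) below 0. Saa1 and Saa2, serum amyloid A genes that are nearly identical and share reads, stayed in liver at 9900, 11536 and 9396 CPM in sham and 10127, 13173 and 10010.2 CPM after CLP for Saa1, which overlapped. In lung Saa1 went from 5.24, 0.422 and 0.889 to 46.5, 29.9 and 29.9 CPM, with no overlap (difference 3.93, interval 2.31 to 5.56, adjusted p 0.00366). The first sham lung library was the highest for Saa1, as it was for the liver marker Alb, and without it the difference was 5.62 for Saa1, 5.35 for Saa2 and 5.33 for Orm1. CLP lung held 0.269 to 0.419% of the liver level of Saa1, against 0.0188 to 0.0254% for the median of the 9 liver markers and 0.915 to 1.01% for Trf, the highest of them. The part of liver transcripts carried into lung libraries in this difference was not tested. Orm1, an acid glycoprotein of plasma, rose in lung from 2.49, 0.797 and 0.655 to 53.6, 48.6 and 25 CPM and was not called in liver, at 3784, 4869 and 3189.7 CPM and 5492, 5972 and 5459 CPM (difference 4.51, interval 3.34 to 5.70). By limma-voom the differences of Saa1 and Saa2 were 4.69 and 4.24, and without the low-count filter the adjusted p of Saa2 was 0.071.

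Lcn2, the iron-siderophore binding protein of neutrophils and epithelium, rose in both organs. It went from 2606, 4128 and 1603 to 10244, 11039 and 9591 CPM in liver and from 126, 118 and 103 to 2702, 2992 and 1619 CPM in lung, and the difference was 2.51 (interval 1.57 to 3.44). Serpina3n and Serpina3m, plasma protease inhibitors of 1 gene cluster, were above 0 at 1.41 and 2.10, while Serpina3f of the same cluster was below 0 at -2.82, with rises of 6.66 in liver and 3.84 in lung. Members of this cluster resemble each other, and the sources used here do not say how reads were shared among them. Saa3, the macrophage and epithelial form, had a difference of 3.04 at an adjusted p of 0.0489, and the call was lost in 11 of the 12 fits that left out 1 library (highest 0.12). Hp, haptoglobin, at 1.10, lost its call without CLP lung replicate 1 (0.0652), CLP lung replicate 2 (0.0561) or sham lung replicate 3 (0.0631). Saa4 and Cp lost theirs without any of 10 single libraries (highest 0.141 and 0.121), and the 2 below 0 became 1 in 8 of the 12 fits.

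Metal-binding and antioxidant genes differed in 1 direction. Of 20 tested, 8 (40%, against 8.89% of all genes) were called above 0 and 0 below 0, with a median of 0.69. Below 0 there were also 0 at an unadjusted p below 0.05 by edgeR and 0 calls by DESeq2. Mt1, a metallothionein that binds zinc and copper, went from 2892, 3545 and 2594 to 4802, 5290.1 and 4559 CPM in liver and from 31.5, 33.7 and 25.6 to 686, 522 and 399.5 CPM in lung. It rose in both organs without overlap, further in lung, where every CLP library stayed below every sham liver library (difference 3.45, interval 2.81 to 4.09, adjusted p 1.6e-05). Mt2 rose by 1.04 in liver and 4.80 in lung (difference 3.75), and its exons overlap an antisense gene. Slc39a14, the zinc and iron importer ZIP14, rose by 1.28 and 3.48 (difference 2.19, interval 1.64 to 2.74). Gclm, a subunit of the glutathione-making ligase, fell in liver by 0.48 and rose in lung by 0.88, and Osgin1, an NRF2 target, did likewise (-0.78 and 0.73). Txnrd1 and Gsr, thioredoxin and glutathione reductases, rose in both organs and further in lung, with differences of 1.04 and 0.90. The eighth, Nqo1, a quinone reductase, at 1.49, lost its call without any of 9 single libraries (highest adjusted p 0.0947).

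Promoters of the 2 metallothioneins are shown because these neighbouring genes rose together. Both cover the 250 bases before the start on the plus strand of chromosome 8 in GRCm38.p6, from RefSeq, at chr8:94178839-94179088 and chr8:94172368-94172617. Capitals mark the metal response element core TGCNCNC on either strand.
Mt1: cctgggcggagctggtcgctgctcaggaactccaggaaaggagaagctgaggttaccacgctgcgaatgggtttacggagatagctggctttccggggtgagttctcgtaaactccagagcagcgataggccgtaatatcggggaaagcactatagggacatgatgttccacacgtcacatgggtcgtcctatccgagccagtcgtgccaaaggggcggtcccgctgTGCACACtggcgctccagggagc
Mt2: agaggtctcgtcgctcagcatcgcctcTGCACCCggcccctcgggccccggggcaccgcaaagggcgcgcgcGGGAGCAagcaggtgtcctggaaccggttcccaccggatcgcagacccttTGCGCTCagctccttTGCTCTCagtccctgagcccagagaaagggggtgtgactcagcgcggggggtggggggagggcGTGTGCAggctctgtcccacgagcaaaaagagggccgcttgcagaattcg
The shown window of Mt1 held 1 match and that of Mt2 held 5. Only the first start listed for each gene was searched, so matches outside these windows are not counted and the 2 numbers do not compare whole promoters. The core is short and stood in 51.4% of all 12002 promoters, and in 51.5% of the 645 called above 0 by at least 2-fold.

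Genes of the vessel wall were called below 0 in 8 of 24 cases (33.3%, against 8.84% of all genes) and above 0 in 4 (16.7%, against 8.89%), with a median of -0.33. The endothelial anticoagulant Thbd, thrombomodulin, went from 6.29, 23.9 and 12.9 to 165, 98.5 and 122 CPM in liver and from 761, 674 and 724 to 367, 356 and 383 CPM in lung. Every CLP library lay above every sham library in liver and below every sham library in lung (difference -4.13, interval -5.11 to -3.15, adjusted p 0.000141). Procr, the endothelial protein C receptor that acts beside thrombomodulin, rose by 4.90 in liver, from 0.233, 1.31 and 0.578 to 29.1, 15.7 and 18.3 CPM, and by 1.08 in lung, where sham and CLP libraries overlapped at 1.68, 1.74 and 2.34 and 3.61, 6.34 and 2.23 CPM (difference -3.82). F3, tissue factor, which starts clotting, fell in liver and rose in lung, with 5.47, 6.44 and 7.71 and 3.21, 1.17 and 1.48 CPM in sham and CLP liver and 54.2, 55.9 and 52.1 and 113, 102 and 90.4 CPM in sham and CLP lung (difference 2.62, interval 1.93 to 3.33). Without sham liver replicate 2 the difference of Procr was -4.48, and without CLP liver replicate 1 that of F3 was 3.31. Ackr1 and Angpt1 lost their calls without any of 9 and 5 single libraries.

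Genes of the angiopoietin and VEGF systems differed in part. Tek, which encodes the angiopoietin receptor TIE2, had no called difference (0.41, adjusted p 0.551). Angpt2, the antagonist of the receptor TIE2, rose in liver from 3.14, 1.19 and 0.867 to 17.3, 25.4 and 15.6 CPM and was not called in lung, at 17.8, 13.9 and 20.2 CPM in sham and 10.4, 17.5 and 9.48 CPM after CLP (difference -3.99, -4.64 without sham liver replicate 1). Kdr, the main VEGF receptor, fell in both organs and further in liver, from 63.7, 69.7 and 87.3 to 4.2, 9.37 and 11.5 CPM against 321, 266 and 331 to 118, 127 and 125 CPM in lung (difference 1.85, interval 1.15 to 2.56). Tie1 and Vwf, an orphan partner of TIE2 and von Willebrand factor, fell in lung by 1.27 and 0.69 with no called change in liver. Icam2, an adhesion molecule, rose in liver by 0.87 and fell in lung by 0.69. Among 22 endothelial transcription factors and junction genes, 5 (22.7%, against 8.84% of all genes) were called below 0 and 1 (4.55%, against 8.89%) above 0. The 5 became 3 without CLP liver replicate 2 or sham liver replicate 1 or 3. The 1 became 4 without CLP liver replicate 2 and 2 without any 1 sham liver library. Cdh5, VE-cadherin, rose in liver from 53.1, 56.2 and 46.2 to 177, 163 and 138 CPM while lung overlapped (difference -1.30), Ets2 rose in liver by 2.64 (difference -2.32), and Sox7 rose in liver by 1.43 and fell in lung by 0.74. The member above 0 was Ocln, occludin, at 1.34.

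Among ligands and receptors of the TGF-beta superfamily, activin and its inhibitor moved apart. Fst, follistatin, which binds and neutralises activin, went from 8.5, 4.65 and 4.05 to 114, 188 and 64.7 CPM in liver, and lung stayed at 6.82, 6.94 and 8 CPM in sham and 5.34, 6.59 and 5.8 CPM after CLP, without a called change. Its difference of -4.73 (interval -5.86 to -3.60, adjusted p 0.000144) stood opposite to that of Inhba at 6.14. Inhbb, the activin B subunit, rose in both organs, by 2.89 in liver and 4.06 in lung (difference 1.17, adjusted p 0.163). It was called without CLP lung replicate 3 (adjusted p 0.00268). Bmpr2 and Acvrl1, BMP receptors of endothelium, rose in liver by 0.95 and 0.71 and fell in lung by 0.52 and 0.78. Of 23 members of this list 3 (13%, against 8.89% of all genes) were called above 0 and 5 (21.7%, against 8.84%) below 0. The 3 became 5 without sham liver replicate 2. Id2, an inhibitor of helix-loop-helix factors, rose in lung alone (difference 1.58), and without sham liver replicate 3 the difference of Inhba was 5.48. Exons of Fst and Acvrl1 overlap antisense genes.

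Of 23 Wnt pathway genes, 5 differences (21.7%, against 8.89% of all genes) were called above 0 and 1 (4.35%, against 8.84%) below 0. In liver 10 genes fell and in lung 7, against 19.9% and 21.7% of all genes. Those that rose numbered 0 in liver, with 1 at an unadjusted p below 0.05, 0 by DESeq2 and 1 by limma-voom, and 2 in lung. Axin2, a general Wnt target, went from 12.1, 11.5 and 8.77 to 1.85, 2.21 and 2.47 CPM in liver and from 23.5, 20.8 and 23.6 to 10.9, 10.4 and 15.1 CPM in lung (difference 1.40, interval 0.79 to 2.02). Lgr5, an R-spondin receptor of hepatocytes near central veins, went from 10.6, 5.25 and 9.63 to 1.48, 0.911 and 1.15 CPM in liver, and lung was at no more than 0.349 CPM in any library (difference 3.01, adjusted p 0.0507 without CLP lung replicate 2). Wnt4 fell in liver by 1.48 with no called change in lung. Rspo3, an R-spondin ligand, was the 1 member below 0, and fell in lung from 0.61, 0.375 and 0.655 to 0.0481, 0.25 and 0.0558 CPM while liver overlapped (difference -2.37, and -3.44 without CLP lung replicate 2).

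Of 19 clock genes 6 (31.6%, against 8.89% of all genes) were called above 0 and 3 (15.8%, against 8.84%) below 0. The 6 became 3 without CLP lung replicate 2 or any sham lung library. Per3, a period repressor, fell from 34.9, 19.1 and 51.4 to 1.61, 2.47 and 3.62 CPM in liver and from 103, 135 and 130.2 to 34.6, 50.4 and 73.7 CPM in lung, further in liver (difference 2.61, adjusted p 0.0107, 0.0513 without the low-count filter and 0.0665 by limma-voom). Bhlhe41, a repressor of the same loop, rose in liver from 7.22, 8.35 and 7.42 to 25.6, 26.3 and 30.3 CPM and fell in lung from 12.1, 15.9 and 17.5 to 5.43, 8.29 and 9.87 CPM, with no overlap in either organ (difference -2.78, interval -3.40 to -2.17). Npas2, an activator of the loop, had 2 counts in sham liver and 107 in CLP liver, a ratio of 67 (interval 18.1 to 560), and its lung libraries overlapped. Its fitted difference was -5.19, -3.93 at a prior count of 2, -4.47 without CLP liver replicate 1 and -8.42 without sham liver replicate 3. Cry1 fell in liver by 0.50 and rose in lung by 0.44, and Bhlhe40 was above 0 at 1.14. Dbp, Per2, Nfil3 and Nr1d1 lost their calls without any of 8, 11, 7 and 5 single libraries. Arntl rose in liver by 1.68 and was not called in lung (1.25), and its difference was not called.

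Glucocorticoid targets and glycolytic genes were mixed. Of 25 glucocorticoid targets 6 (24%, against 8.89% of all genes) were above 0 and 3 (12%, against 8.84%) below 0. Of the 6, Mt1, Mt2 and Lcn2 also stand on the lists above, and the 3 became 5 without sham liver replicate 2. Tsc22d3, the glucocorticoid-induced leucine zipper, fell in liver from 51.1, 50.9 and 96.3 to 23.4, 23.2 and 21.6 CPM, and lung overlapped at 327, 382 and 394 CPM in sham and 345, 434 and 399 CPM after CLP (difference 1.64, interval 1.00 to 2.28). Fkbp5, at 1.61 (adjusted p 0.0488), lost its call without any of 8 single libraries (highest 0.104). Of 27 hypoxia-inducible and glycolytic genes, 2 (7.41%, against 8.89% of all genes) were above 0 and 5 (18.5%, against 8.84%) below 0. The 5 became 3 without CLP liver replicate 1 or sham liver replicate 1 or 3. The 2 were 4 without CLP lung replicate 3 and 1 in 8 other fits. Pfkfb3, the enzyme that raises the glycolytic activator fructose 2,6-bisphosphate, went from 41.8, 32.1 and 56.5 to 954, 569.7 and 668 CPM in liver and from 132, 152 and 164 to 533, 463 and 354 CPM in lung (difference -2.48, interval -3.17 to -1.78). Pkm, the pyruvate kinase of most tissues other than hepatocytes, and Pfkp, platelet phosphofructokinase, were also below 0, at -1.26 and -1.28, and Eno1, enolase, was above 0 at 0.88.

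Markers of the cells that enter or line the organs were read in the same way. Of 18 neutrophil genes, 16 rose in liver and 18 in lung, against 20.1% and 20% of all genes. The difference was called above 0 in 2 (11.1%, against 8.89% of all genes) and below 0 in 1 (5.56%, against 8.84%), near the shares of all genes. The summed level of these 18 was 3061 to 4189 CPM in sham liver, 4487 to 5423 in CLP liver, 807 to 881 in sham lung and 5193 to 7330 in CLP lung. In liver most of that sum came from Lrg1, which was not called there, with a mean of 3026 CPM in sham and 3852 CPM after CLP, while the median change of the list in liver was 3.22. Wfdc21 and Lrg1 were above 0 at 2.31 and 1.48. Csf3r, the G-CSF receptor, was below 0 at -0.76, and its call was lost without CLP liver replicate 2 (adjusted p 0.0559), sham liver replicate 2 (0.0654) or sham liver replicate 3 (0.078), or with library totals in place of scaling (0.0585). Genes of neutrophil precursors, 9 tested, had 3 above 0 (33.3%, against 8.89%), among them Lcn2 described above, and 1 below 0 (11.1%, against 8.84%). In liver 5 rose and 1 fell, against 20.1% and 19.9% of all genes, and in lung 8 rose, against 20%. Elane, neutrophil elastase, had 9 counts in sham liver and 0 in CLP liver, at least 2.4-fold lower, and 2 counts in sham lung and 78 in CLP lung, a ratio of 41.3 (interval 11.1 to 347). Ltf and Camp of the same list went the other way in liver. They had 0 counts there in sham and 203 and 54 after CLP, at least 84.7-fold and 22.5-fold higher, with no called difference. Chil3, a lectin of macrophages and neutrophils, rose in liver by 4.65 and was not called in lung (0.48).

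Of 13 monocyte genes 8 rose in liver and 11 in lung. Of these 13 genes 4 (30.8%, against 8.89% of all genes) had a difference above 0 and 2 (15.4%, against 8.84%) below 0. Their summed level went from 51.8 to 54.7 CPM in sham liver to 142 to 170.5 in CLP liver, and from 1928 to 2099 in sham lung to 2224 to 2520.4 in CLP lung. In lung most of that sum came from Ace, which fell from a mean of 1414 to 849 CPM, and from Chil3, which was not called, while the median change of the list in lung was 2.91. Fcgr1, the high-affinity Fc gamma receptor, went from 2.24, 2.58 and 3.09 to 24.9, 22.6 and 19.2 CPM in lung and stayed in liver at 6.05, 6.2 and 6.17 CPM in sham and 5.93, 7.55 and 8.06 CPM after CLP, where the libraries overlapped (difference 2.85, interval 2.34 to 3.37). Fcgr4, another activating Fc gamma receptor, differed by 2.25, Treml4 by 2.25 and Plac8 by 1.58. Ly6c2, the marker of classical monocytes, rose by 3.01 in liver and 3.21 in lung, with no called difference. Ace, angiotensin-converting enzyme, which is also abundant in lung endothelium, was below 0 at -1.92.

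Of 11 Kupffer cell genes 5 fell and 1 rose in liver, where their summed level was 1009.6 to 1155 CPM in sham and 844 to 1000.2 CPM after CLP. Differences were called above 0 in 3 (27.3%, against 8.89% of all genes) and below 0 in 2 (18.2%, against 8.84%). The 2 became 1 in 9 of the 12 fits that left out 1 library. Cd163, the haemoglobin scavenger receptor, went from 87.9, 74.2 and 70.7 to 16.8, 14.7 and 17.3 CPM in liver, and lung overlapped at 12.2, 11.4 and 11.9 CPM in sham and 15.5, 11 and 15.9 CPM after CLP (difference 2.51, interval 2.08 to 2.94). Slc40a1, the iron exporter ferroportin, fell in liver by 2.56 (difference 2.53), whereas Marco, a scavenger receptor, rose in liver by 2.59 with no called change in lung (difference -2.51, interval -3.69 to -1.34). Clec4f, a lectin specific to Kupffer cells, fell in liver by 0.63, and its 3 sham and 2 CLP counts in lung allow no comparison. Timd4 did not change in liver by the test and rose in lung by 2.29 (difference 2.31, and 1.71 without CLP lung replicate 1). Of 12 genes of liver sinusoidal endothelium 10 fell and 1 rose in liver, against 19.9% and 20.1% of all genes, and 4 differences (33.3%) were above 0 and 1 (8.33%) below 0. The summed level of the 12 was 685 to 818 CPM in sham liver and 575 to 616 in CLP liver, and 517 to 644 in sham lung and 1302 to 1872 in CLP lung, where Lyve1 and Fcgr2b rose. Lyve1, which is also a marker of lymphatic vessels, rose in both organs by 1.71 in liver and 1.69 in lung and made up most of that sum in lung.

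Markers of lung epithelium were called below 0 in 7 of 13 alveolar type 2 genes (53.8%, against 8.84% of all genes) and 4 of 13 alveolar type 1 genes (30.8%), with 0 above 0. Above 0 there were also 0 at an unadjusted p below 0.05 by edgeR and 0 calls by DESeq2. The summed level of the 13 type 2 genes was 21287 to 22862 CPM in sham lung and 18389 to 21004 in CLP lung, and 763 to 1058 CPM in sham liver and 874 to 1998 in CLP liver, most of it in liver from the fatty acid synthase Fasn. In liver 8 of the 13 rose. Sftpc, surfactant protein C, was at 7811, 8495 and 8091 CPM in sham lung and 7229, 6323 and 7012 CPM in CLP lung, a change that was not called. In liver it was at 2.91, 0.477 and 1.54 CPM in sham and 11.1, 8.59 and 16.3 CPM after CLP, without overlap, and this gave a difference of -3.09 (adjusted p 0.000969). Sftpb, Napsa and Slc34a2 showed the same form, with rises in liver of 3.49, 2.68 and 1.90 to levels of at most 1.67% of lung. The difference of Sftpb was -3.71, -5.60 without sham liver replicate 1, -3.12 without replicate 2 and -4.38 by limma-voom. These are the low levels of lung epithelial transcripts in liver described at the start. In CLP liver they were 0.115 to 0.218% of lung for Sftpc and 1.24 to 1.67% for Napsa. Their source and their part in these differences were not tested. Where genes were kept only if the organ with less reached 1% of the other, 1406 differences above 0 and 1381 below 0 were called. Ager and Clic5, type 1 markers, fell in lung by 0.55 and 0.85 beside low levels in liver. Without sham liver replicate 3 the difference of Ager was -2.98 in place of -2.37. Of 16 lung capillary genes 11 fell in lung, and 4 differences (25%, against 8.84% of all genes) were below 0 and 1 (6.25%, against 8.89%) above. Calcrl, the receptor component for adrenomedullin, and Ednrb, an endothelin receptor, fell in lung by 2.12 and 1.54 with no called change in liver.

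**Figure D5:**
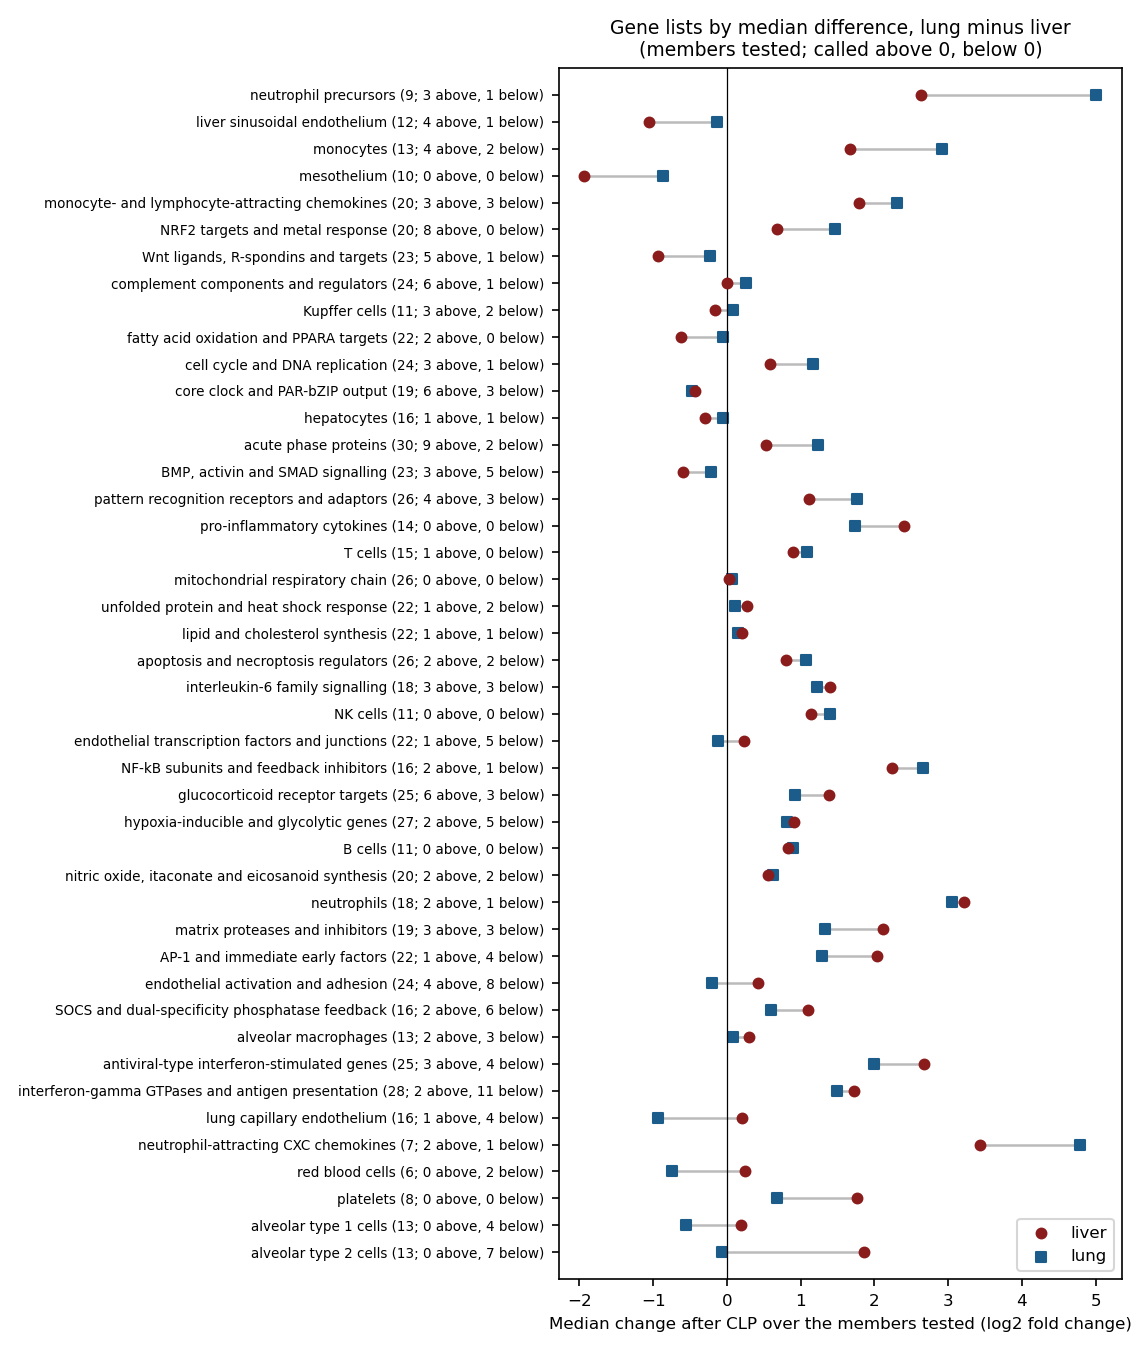
Median change after CLP (log2) in liver (circles) and lung (squares) over the tested members of each of 44 gene lists, ordered by the median of the members' own differences, with the members tested and those called above and below 0 in brackets. The median of the differences need not have the sign of the gap between the 2 medians, as for the 7 neutrophil-attracting chemokines, at -0.87 although the lung median is higher.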

How the data were processed

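Total RNA of 6 liver and 6 lung libraries was sequenced after a stranded TruSeq preparation, per the labels' protocols. The table deposited by the authors holds raw whole-number counts for 55414 Ensembl identifiers, of which 52081 had a symbol. Per the submitters' processing notes reads were handled on build mm39 with FastQC, featureCounts, DESeq2 and STAR 2.7.10a. The sources used here do not give the annotation, the strand setting of counting or the treatment of reads with several matches. Total counts per library were 10559895 to 15854117.

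Genes were kept by edgeR's filterByExpr on the 4 groups (minimum count 10, minimum total 15), scaled by TMM and fitted with the quasi-likelihood model of edgeR 4.0.16 (robust, R 4.3.3), 1 mean per group. The tested contrast was (CLP minus sham in lung) minus (CLP minus sham in liver). P-values were two-sided and Benjamini-Hochberg adjusted over all 16111 genes, with a threshold of 0.05. Intervals are 95% Wald intervals with the quasi-likelihood dispersion. Ratios of counts carry exact intervals for counting error only, on scaled library sizes, with a floor of 3 counts over a group. On simulated counts of this design with 15742 genes the fit recovered 59% of 2-fold and 90% of 4-fold differences, and 6.29% of 159 calls were false. In the simulation CLP changed nothing in liver, and a small set of genes in lung. These were drawn from genes with a mean of at least 10 sham counts in each organ. The real data changed far more widely and in both organs, so these rates need not hold for them or for genes near 0 counts.

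Alternatives were other scalings, DESeq2 1.42.0, limma-voom (limma 3.58.1), other filters, replicate blocks, a prior count of 2, and leaving out each library. All 44 gene lists and their members were chosen with earlier results of these data known, and no set test was run. Named genes were the largest called differences held without any single library, the opposite changes of lowest p, for each list the members of lowest p and highest level, the most alike responses and a fixed set of inflammatory genes. Other list members, mainly those called, were named after their values were seen. Some genes that these rules name are not reported here. Exon overlaps come from GENCODE M21 on GRCm38, and promoters from RefSeq on GRCm38.p6. Because the counts are on mm39, no other positions are given.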

Additional observations from a re-analysis of the deposited data

Results flagged for a closer look

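The comparison is itself a test of a difference between organs under the same operation, so its calls are the results to look at again: 1432 genes above 0 and 1424 below 0, by edgeR's quasi-likelihood test with Benjamini-Hochberg adjustment over 16111 genes. Opposite changes, called in each organ and in the difference, are the clearest of these. Among genes that rose in liver and fell in lung, the log2 differences were -2.94 for Map4k3, -2.72 for Ppm1l, -1.95 for Plxna1, -3.17 for Agap1 and -2.58 for Pcyox1. Among genes that fell in liver and rose in lung, they were 2.98 for Rab11fip4, 3.61 for Fcgr2b, 3.37 for Abtb2, 3.30 for Qprt and 3.30 for Bcar3. In each of these 10 genes every CLP library lay on its own side of every sham library of the same organ, and the call held in all 12 fits that left out 1 library. They were chosen by lowest p on these same values, so this describes them and is no separate support. Of all calls, 895 of 1432 above 0 and 758 of 1424 below 0 held in all 12 fits. Groups of 3 libraries are too small for a formal test of libraries that stand apart, and the weight of single libraries was read from the fits that left out 1.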

How the results depend on the processing

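Over the scalings, tests, filters and blocks, called differences numbered 2515 (no low-count filter, 29610 genes) to 3401 (DESeq2), limma-voom called 2885, and 2333 to 2833 of the 2856 were shared outside the change of prior count, all with the same sign. With library totals in place of TMM the median difference moved from 0 to 0.12, 65.9% of 2826 calls were above 0 in place of 50.1%, and 2121 genes rose in liver in place of 3236. The same scaling turned the sign of the median for interleukin-6 signalling, heat shock, lipid synthesis and apoptosis genes. Leaving out 1 library at a time gave 1062 to 1623 calls above 0 and 951 to 1424 below 0, and 721 to 926 and 563 to 743 of at least 2-fold. Below 0 the lowest count, 951, came without sham liver replicate 3. In the same fits 2715 to 3290 genes rose and 2649 to 3255 fell in liver, 2643 to 3868 rose and 2529 to 3366 fell in lung, and 138 to 207 and 102 to 174 were opposite. Fgg, uncalled at -0.22, ranged from -0.69 to 1.24 in these fits, and was called at 1.24 without sham lung replicate 1 (adjusted p 0.0312).

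Whether equal replicate numbers pair the samples was checked. Deviations of same-numbered liver and lung libraries correlated at 0.133, 0.051 and 0.144 after CLP and -0.013, 0.042 and 0.073 after sham, so pairing was not established, although each CLP library correlated best with its own number and sham libraries did not all do so. A replicate block shared by the 4 groups gave 2844 calls (2617 shared) and a block of surgery and number 2901 (2509 shared), with Tnf then called (adjusted p 0.0444), and 11 and 12 antiviral genes below 0 in place of 4.

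Calls near the threshold moved most. Without the low-count filter Fkbp5, Dbp, Usp18, Isg15, Xaf1, Nqo1 and 5 guanylate-binding and antigen presentation genes lost theirs, limma-voom lost Ifit2, Saa3, Ackr1, Angpt1 and Nfil3 among others, and library totals lost Cd74, Nr1d1, Cp, Dusp4, Socs6 and Tap2. The cause was not tested. Chosen after seeing the data, a limit to genes at 1% or more of the other organ's level left 1406 calls above 0 and 1381 below 0, and one to genes over 3 counts in each group left 1376 and 1365. Depth limits genes near 0 counts in 1 group, where counting intervals span over 10-fold.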

Other observations

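Of 16 NF-kB genes 15 rose in liver and 16 in lung, against 20.1% and 20% of all genes. Differences were called above 0 in 2 (12.5%, against 8.89%) and below 0 in 1 (6.25%, against 8.84%). Those above 0 were the inhibitors Nfkbie and Bcl3, which rose further in lung, with differences of 1.68 and 1.67. The 1 below 0 was Nfkb1 at -0.46, with an adjusted p of 0.179 without CLP liver replicate 1. Of 22 immediate early factors 4 (18.2%, against 8.84% of all genes) were below 0, among them Klf6, Jun and Maff at -1.49, -0.99 and -1.59 beside Ier3. The call of Maff was lost without sham liver replicate 3 (adjusted p 0.067), by limma-voom (0.0679) and without the low-count filter (0.0762). Junb was above 0 at 1.13, a call lost without sham lung replicate 1 (adjusted p 0.0519) or 3 (0.0561). Of 26 apoptosis and necroptosis genes 2 (7.69%, against 8.89% of all genes) were above 0 and 2 (7.69%, against 8.84%) below 0. These shares are near those of all genes. Among the called members, Bcl2l1, which encodes the survival protein BCL-XL, rose by 2.81 in liver and 0.64 in lung. Bid, a pro-apoptotic relative, rose in lung alone by 1.74. Of 24 complement genes 6 (25%, against 8.89% of all genes) were above 0, 3 without CLP lung replicate 1 or sham lung replicate 2 or 3. The 1 below 0 (4.17%, against 8.84%) was Masp1, a lectin pathway protease, at -0.88, and its call was lost in 9 of the 12 fits that left out 1 library (highest adjusted p 0.129). C5ar2, a receptor for C5a, fell in liver from 3.73, 5.01 and 4.43 to 0.742, 0.651 and 0.987 CPM and was not called in lung (difference 2.62), and C3ar1 and Cfp, properdin, rose in lung alone (differences 1.54 and 1.28).

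Matrix proteases parted by gene: Mmp19 and Mmp14 rose in lung alone (differences 1.62 and 1.03), and Adamts1 rose further in liver (-1.39). Slc25a20, the mitochondrial carnitine carrier, fell in liver by 0.98 with no called change in lung, and Ptgs1, cyclooxygenase 1, did likewise (-1.99 and -0.48). Of 26 genes of the respiratory chain 0 differences were called by edgeR and 0 by DESeq2, with 2 at an unadjusted p below 0.05, both above 0, and a median of 0.00. No difference was called among 11 NK cell and 11 B cell markers either, with 0 and 1 at an unadjusted p below 0.05 and 0 and 1 called by DESeq2. The haemoglobin genes Hba-a1 and Hba-a2, which are nearly identical, were below 0 at -0.98 and -1.19. The call of Hba-a1 was lost in 9 of those 12 fits (highest adjusted p 0.138), by limma-voom (0.0508), with library totals (0.0731) and without the low-count filter (0.147). The summed level of 6 red cell genes was 711 to 1134 CPM in sham lung and 498 to 618 in CLP lung. How far blood in the organs bears on the other differences was not tested.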
